A study of Mus musculus with 29 samples.

Results

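The 35 genes described here encode enzymes and carriers for the activation of fatty acids, their transport into mitochondria and their oxidation. Some act outside mitochondria, among them the peroxisomal Ehhadh, Decr2 and Acaa1a. All 35 were taken from the table of gene counts by symbol, 35 of 48023 genes. They fall into 6 steps: activation (5 genes), the carnitine shuttle (6), acyl-CoA dehydrogenases (7), hydration, hydroxyacyl oxidation and thiolysis (9), the handling of unsaturated acyl chains (5) and electron transfer (3). All 35 had a row and all 35 passed the filter on low counts in each line. Fatty acids are first joined to coenzyme A, passed to carnitine at the outer mitochondrial membrane, carried across the inner membrane and returned to coenzyme A. Each turn of beta-oxidation then removes an acetyl-CoA unit through dehydrogenation, hydration, a further oxidation and thiolysis, and the electrons taken by the acyl-CoA dehydrogenases pass through the electron transfer flavoprotein to ubiquinone. In skeletal muscle this route supplies much of the energy at rest and during fasting.

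RNA of tibialis anterior (TA) muscle was sequenced from 29 male mice labelled C57BL/6J and aged 2–3 months, in 8 groups of 3 or 4 mice. In M-p110αKO and M-p110βKO mice, Cre driven by the human skeletal actin promoter removed a floxed exon of the p110α or p110β catalytic subunit of phosphatidylinositol 3-kinase in muscle fibers, and floxed mice of the same line served as controls. Each line was studied randomly fed or after 24 h of fasting. The p110α line gave 4 fed controls, 4 fed knockouts, 4 fasted controls and 3 fasted knockouts, and the p110β line gave 3, 4, 3 and 4. By the supplement, C57BL/6 background is less pure in the p110β line than in the other, so a difference between lines cannot be told apart from one of background. Values are CPM, the reads of a gene over the library total, made comparable by TMM factors within each line, so levels are set across lines only as a description. Muscle holds several cell types, and fewer cells of a type cannot be told apart from less RNA per cell.

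Libraries held 5351935–11653239 assigned reads. Muscle genes were abundant in all 29 mice: Ckm, muscle creatine kinase, lay between 4576 and 11200 CPM, and Myh4, the fast IIb myosin, between 44490 and 83250. The knockout could not be read from the targeted genes: Pik3ca, which encodes p110α, ran from 105.8 to 186 CPM in M-p110αKO and from 102 to 189 in their controls (difference over both states 0.01 ± 0.09), and Pik3cb, which encodes p110β, differed by 0.02 ± 0.10 in M-p110βKO. The paper reports lower mRNA of the targeted gene in hindlimb muscle of each knockout, a fall not seen in these counts. Each deletion takes 1 exon and the counts are summed over all exons, but whether that accounts for the lack of a fall was not tested. The counts thus do not check the deletion, and the genotypes are those of the labels. Fasted p110β-line controls 23 and 24 stood apart in 7 adipocyte genes (Adipoq, Adig, Cfd, Cidec, Lep, Plin1 and Retn), which summed to 158 and 154 CPM against 0.852–19.8 in the other mice, with Adipoq at up to 24.8 CPM. Fasted p110β-line mice 25 (control) and 28 (knockout) stood apart in 3 liver genes, at 24.1 and 29.3 CPM against at most 4.33 elsewhere. Changes in fasted p110β-line controls are therefore also given without mice 23 and 24. That leaves mouse 25 alone in its group, so it is assumed to vary like the other groups, from which the spread behind those p values comes. Mouse 25 also had the highest sum of slow fiber genes, at 119 CPM against 15.6–71.1 in the other mice. The part of slow fibers in the values without mice 23 and 24 was not tested.

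In fed controls of the p110α line the levels per kb of exon spanned more than 2 orders of magnitude. The length is that of all annotated exons of a gene joined, 1516 bases for Acaa2 and 8730 for Hadha. The order therefore depends on it. By CPM alone Hadha (389–472) and Acadm (411–494) lay above Acaa2 (204–259) in these mice. The highest per kb was Acaa2, the mitochondrial thiolase for medium and long chains, at 149 ± 16.1 CPM per kb (SD, n = 4). It was followed within its spread by Acadl, the long-chain acyl-CoA dehydrogenase, at 144 ± 12.7. Acadm, the medium-chain dehydrogenase, came next at 113 ± 9.11, then Etfa, the alpha subunit of the electron transfer flavoprotein, at 99.6 ± 10.0, and Ech1, a dienoyl-CoA isomerase, at 86 ± 5.83. At the other end, Ehhadh, the peroxisomal bifunctional enzyme, stood at 1.88 ± 0.244, Cpt1b at 1.71 ± 0.740, Acad10 at 1.65 ± 0.300, Cpt1a at 1.36 ± 0.271, Acsl5 near it and Decr2, the peroxisomal dienoyl-CoA reductase, at 0.734 ± 0.184. In this lowest run, from Ehhadh down to Acsl5, each neighbour lay within the spread of the next. Fed controls of the p110β line had the same highest pair, with Acaa2 at 159 ± 23.8 and Acadl at 125 ± 12.2 CPM per kb (n = 3).

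**Figure D1:**
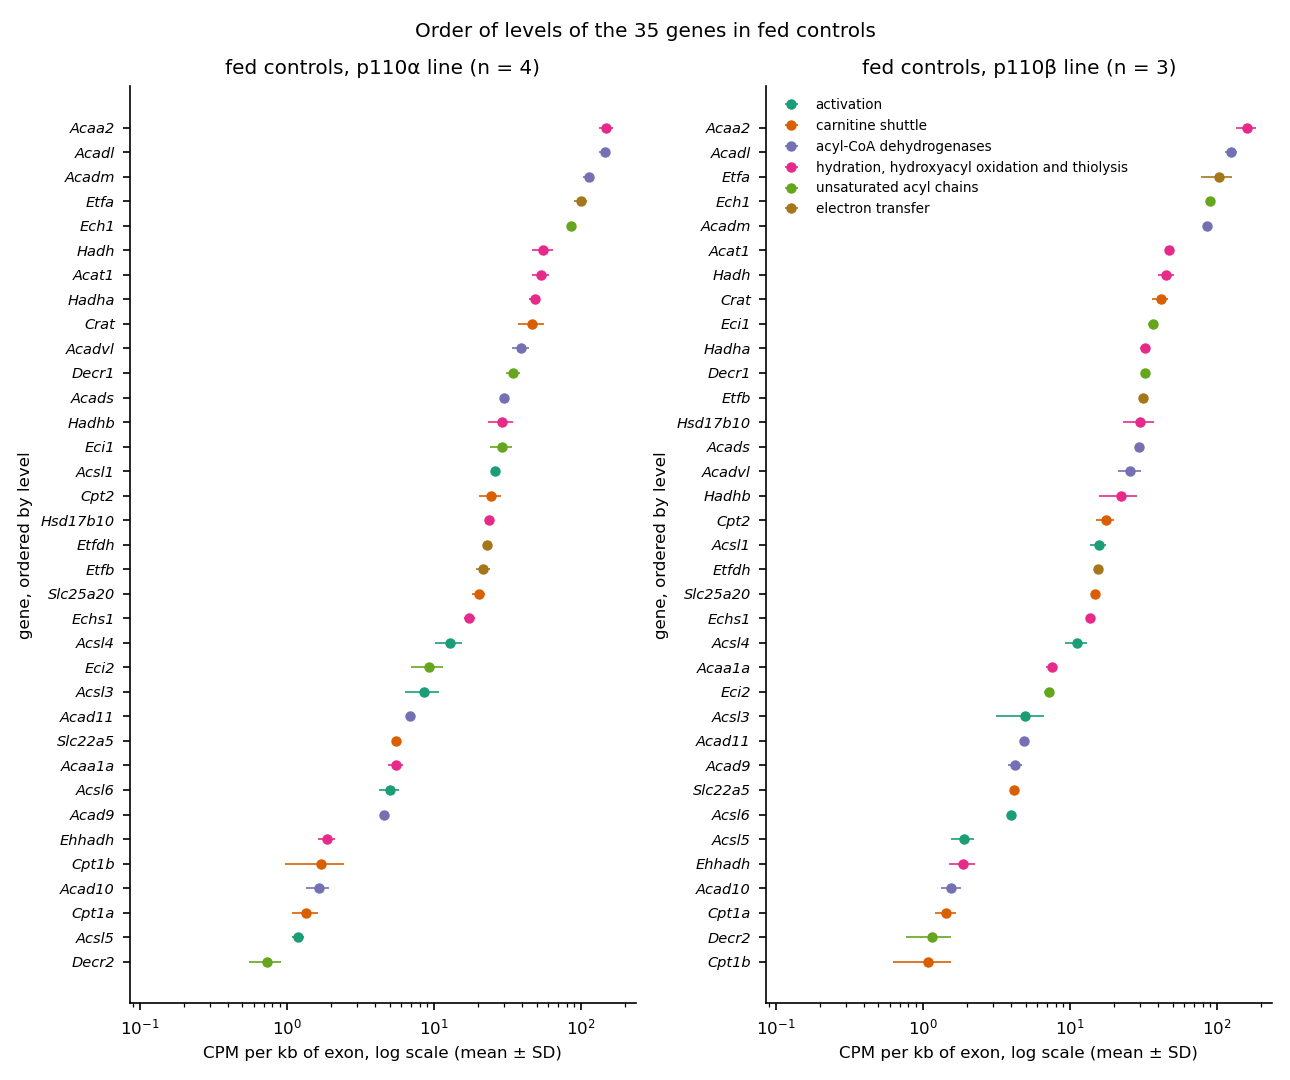
Levels of the 35 genes in fed controls of each line, as CPM per kb of exon on a log axis, ordered by mean (points, mean; bars, SD; colours, step). By this measure, which depends on exon length, Acaa2 and Acadl lead in both lines. Cpt1a, Cpt1b, Acad10 and Decr2 sit among the lowest 6 of each.

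Cpt1b, the muscle form of carnitine palmitoyltransferase 1, needs a caution on counting. Cpt1b (ENSMUSG00000078937, chr15:89416405-89425863) shared 81.4% of its exon bases with Gm44502, an overlapping gene model on the same strand in the GENCODE annotation of GRCm38. Gm44502 is absent from the genes that were counted, so it is not shown that this overlap affected the counting. How reads lying in more than 1 gene were treated is also unstated. The effect of the overlap on the 14–100 reads per library of Cpt1b was not tested, and they remain uncertain as a level. Etfb, the beta subunit of the electron transfer flavoprotein, shared 58.2% of its exon bases with Gm45233 and Mir7051 on the same strand. Gm45233 held at most 1 read in any library. Both overlapping genes were among those counted, so the level of Etfb also remains uncertain. Acadvl, the very-long-chain acyl-CoA dehydrogenase, shared 42.9% with Dvl2 on the opposite strand. Whether counting used strand is not given, so the level of Acadvl is uncertain too. Every other member shared at most 9.91% of its exon bases with another gene.

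Each fasting comparison called more of the 35 genes than any comparison of genotypes or lines, but a majority passed only in M-p110βKO. In controls of the p110α line 9 of 35 rose and 0 fell (adjusted p under 0.05, edgeR quasi-likelihood test, Benjamini-Hochberg over all tested genes). Of the 12433 tested genes 15.4% rose and 14.7% fell. The share of members that rose was thus above that of tested genes. With rises and falls joined, it was below. In M-p110αKO 10 rose and 1 fell, against 11.6% and 9.91% of tested genes. The M-p110αKO count changed with the mice kept: these 11 became 4 without mouse 13 or 15, 5 without mouse 6, 6 without mouse 7, 7 without mouse 5, and 6 when only the 2 groups were fitted. The share of all tested genes called in those fits is not given here, so the drop is not shown to be particular to these genes. In controls of the p110β line 16 rose and 1 fell, against 14.5% and 12.4% of 12249 tested genes, and in M-p110βKO 22 rose and 0 fell, against 19% and 18.9%. Without mice 23 and 24, 12 rose and 0 fell in p110β-line controls, against 9.72% and 6.52% of the 12895 genes in that fit, and 22 rose and 0 fell in M-p110βKO, against 18.9% and 17.8%. The median log2 fold change over the 35 genes was 0.16, 0.15, 0.33 and 0.51 in this order, and over all tested genes it lay between -0.02 and 0.00 in each. Each comparison used its own fed and fasted mice. Acsl1, Slc25a20, Eci2 and Etfdh rose in all 4 comparisons, and 10 genes passed in none of them.

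**Figure D2:**
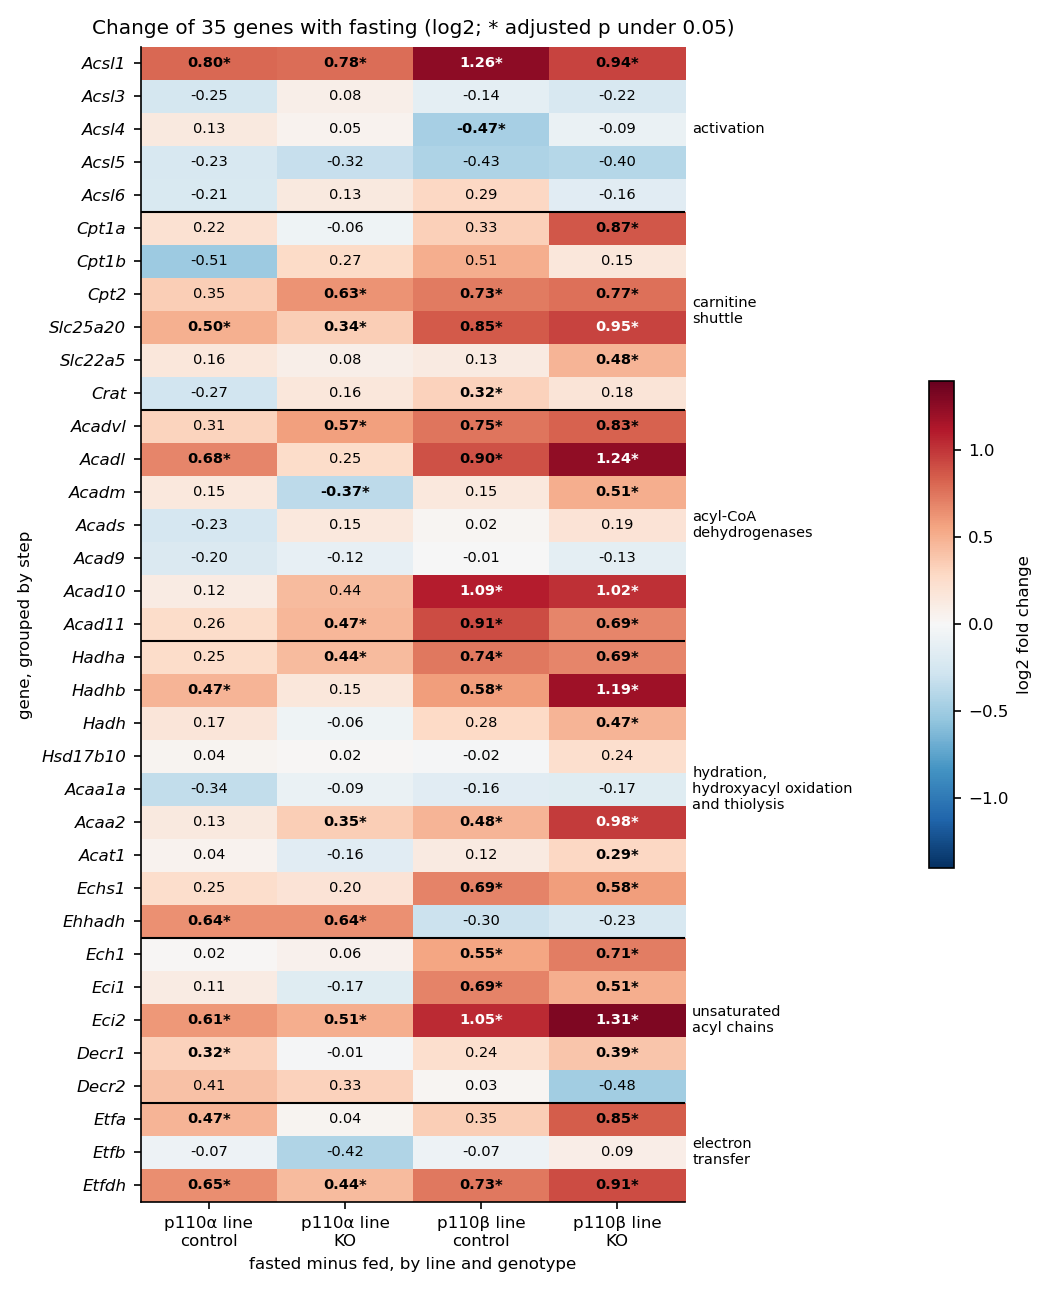
Log2 fold change with fasting (fasted minus fed) of the 35 genes, in rows by step, for controls and knockouts of each line; an asterisk and bold type mark an adjusted p under 0.05. Of 35 genes 9, 10, 16 and 22 rose from the first column to the last, and 1 fell in each of the second and the third.

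The summed level of all 35 genes was 4244 ± 207 CPM (SD, n = 4) in fed controls of the p110α line and 5185 ± 510 (n = 4) after fasting, and 4598 ± 231 (n = 4) and 5275 ± 283 (n = 3) in M-p110αKO. In the p110β line it was 3533 ± 236 (n = 3) and 5072 ± 216 (n = 3) in controls and 3267 ± 95.3 (n = 4) and 5188 ± 560 (n = 4) in M-p110βKO. In each of these 4 pairs every fasted mouse was above every fed mouse. Sums of marker genes also differed between these mice without overlap: in p110α-line controls 6 macrophage genes summed to 9.99–16.6 CPM fed and 27.0–51.7 fasted, and 5 skeletal muscle genes to 67620–84310 fed and 51950–60450 fasted. In M-p110βKO both were lower in every fasted mouse, at 26.8–45.4 fed and 17.8–20.3 CPM fasted for macrophage genes and 83200–84040 and 64500–71070 for muscle genes, as were 6 fibroblast genes (375–545 and 153–225) and 5 endothelial genes (433–479.6 and 246–383). Macrophage sums of fed and fasted mice overlapped in M-p110αKO and in p110β-line controls. In p110β-line controls fibroblast genes were lower in every fasted mouse (351–433 CPM fed and 306–314 fasted). So were satellite cell genes (3.65–7.10 and 2.025–3.49). The part of these cells in the summed level was not tested. By step, the activation genes summed to 437 ± 14.8 CPM in fed and 634 ± 81.6 in fasted p110α-line controls, of which Acsl1 made up the most. The carnitine shuttle genes summed to 439.8 ± 70.7 and 456.5 ± 15.6 CPM in the same mice, with overlapping values.

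**Figure D3:**
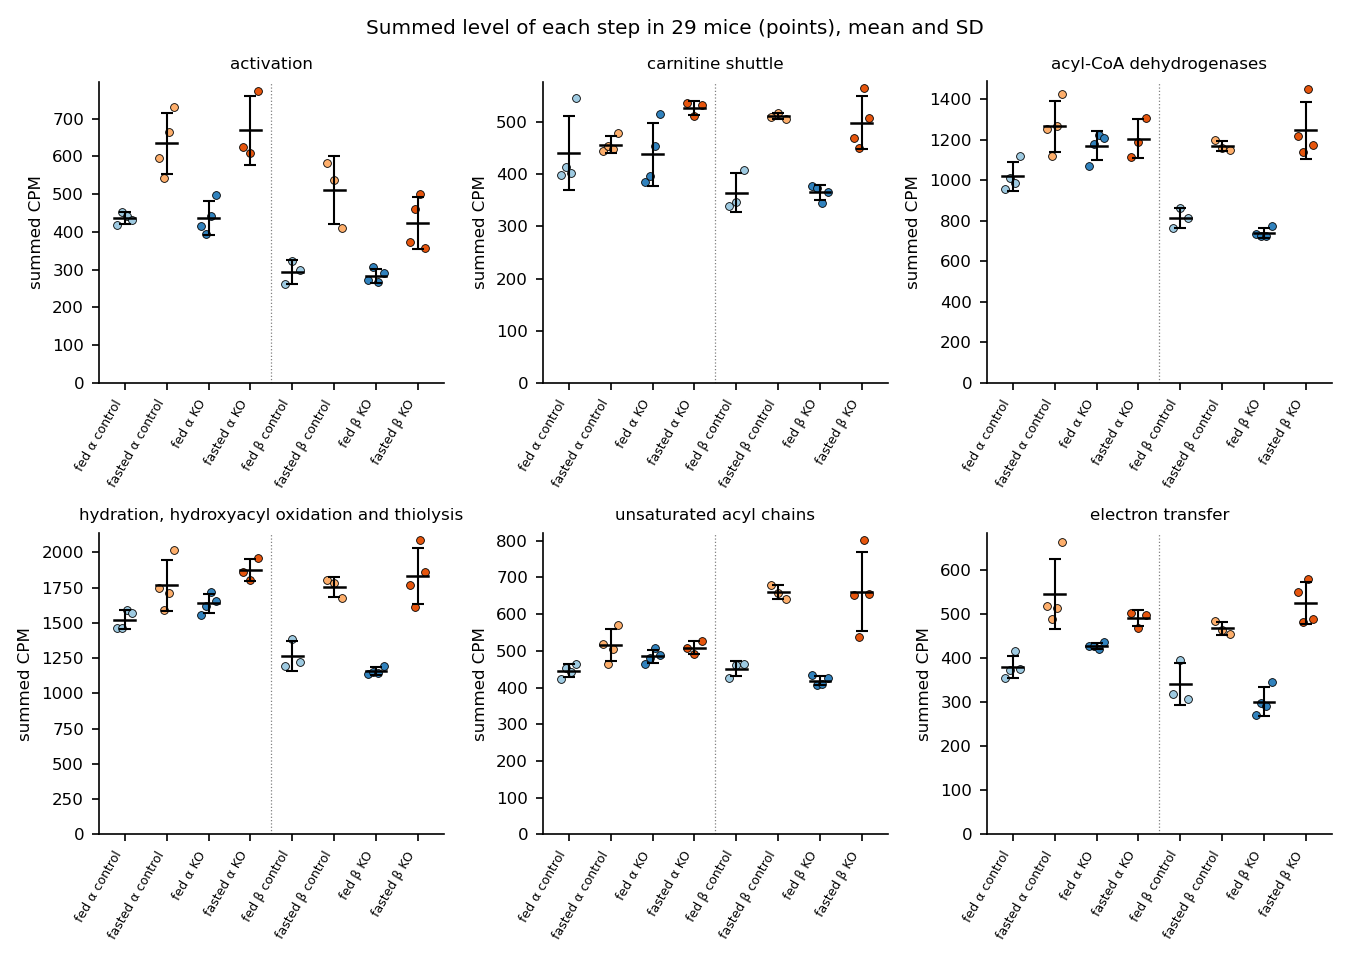
Summed CPM of the genes of each step in every mouse (points), and group means with SD (bars); each panel starts at 0 and the dotted line parts the p110α from the p110β line. The sums were higher in every fasted than in every fed mouse of the p110β line in all 6 panels, while the carnitine shuttle sums of fed and fasted p110α-line controls overlapped.

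The start-site windows of the 4 genes that rose in every fasting comparison are shown, since these genes moved together. That of Acadm is shown beside them, since Acadm rose in M-p110βKO only and fell in M-p110αKO. These windows were chosen after these values were known. Another RefSeq window of Acsl1, at chr8:46490716-46491015, held none of the motifs searched and is not printed. Windows run from 250 bases before to 50 bases after the start (RefSeq, GRCm38.p6), read 5′ to 3′ on the strand of the gene. Capitals mark GC boxes (GGGCGG on either strand) in the first 4 and a nuclear receptor site (AAGGTCA, which holds AGGTCA, on the other strand and so printed as its reverse complement) in Acadm.
Acsl1 (chr8:46470787-46471086, plus strand): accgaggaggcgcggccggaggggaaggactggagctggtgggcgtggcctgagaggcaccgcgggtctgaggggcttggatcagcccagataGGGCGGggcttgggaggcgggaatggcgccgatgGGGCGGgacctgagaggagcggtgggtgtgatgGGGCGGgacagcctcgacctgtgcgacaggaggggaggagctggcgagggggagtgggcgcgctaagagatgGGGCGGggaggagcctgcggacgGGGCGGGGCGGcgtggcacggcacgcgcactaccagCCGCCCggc
Slc25a20 (chr9:108661886-108662185, plus strand): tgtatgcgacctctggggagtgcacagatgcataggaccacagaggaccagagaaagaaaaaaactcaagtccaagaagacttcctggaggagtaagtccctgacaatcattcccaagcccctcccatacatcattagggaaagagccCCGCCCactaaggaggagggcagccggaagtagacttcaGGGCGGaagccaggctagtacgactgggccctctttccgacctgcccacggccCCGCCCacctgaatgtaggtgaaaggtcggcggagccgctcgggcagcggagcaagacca
Eci2 (chr13:34994095-34994394, minus strand): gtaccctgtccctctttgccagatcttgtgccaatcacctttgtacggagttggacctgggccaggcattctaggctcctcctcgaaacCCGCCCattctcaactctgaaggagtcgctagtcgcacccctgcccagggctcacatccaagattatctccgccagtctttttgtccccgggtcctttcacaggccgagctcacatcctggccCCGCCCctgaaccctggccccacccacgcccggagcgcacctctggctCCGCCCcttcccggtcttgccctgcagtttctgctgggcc
Etfdh (chr3:79628718-79629017, minus strand): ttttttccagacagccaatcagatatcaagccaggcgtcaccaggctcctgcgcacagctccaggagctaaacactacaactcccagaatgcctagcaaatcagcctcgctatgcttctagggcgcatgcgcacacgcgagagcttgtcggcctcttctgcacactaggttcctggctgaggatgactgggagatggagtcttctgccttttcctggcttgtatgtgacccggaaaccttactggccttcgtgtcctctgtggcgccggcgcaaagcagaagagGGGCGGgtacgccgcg
Acadm (chr3:153944594-153944893, minus strand): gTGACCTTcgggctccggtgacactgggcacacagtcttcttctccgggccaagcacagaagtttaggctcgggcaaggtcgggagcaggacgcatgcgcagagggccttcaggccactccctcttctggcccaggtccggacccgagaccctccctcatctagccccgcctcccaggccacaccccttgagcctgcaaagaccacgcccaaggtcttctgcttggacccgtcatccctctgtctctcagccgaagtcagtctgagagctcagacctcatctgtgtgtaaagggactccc

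Of the 35 members 29 had such a window of 300 bases, and Cpt1b, Crat, Acad9, Acaa2, Acat1 and Decr1 had none. The direct repeat AGGTCANAGGTCA, to which the fatty acid receptors PPAR with RXR bind, was in 0 of the 29, and in 0.0396% of all 32851 windows of any gene. The single site AGGTCA was in 5 of 29 members (Acsl6, Cpt1a, Acadvl, Acadm and Echs1), or 17.2%, and in 18.1% of all genes with a window. Its longer form AAGGTCA, the ERR site, was in Acsl6 and Acadm, 6.9% of members and 5.38% of all genes. The FoxO site GTAAACA was in 0 members and in 4.05% of all genes. GGGCGG was in 24 members, 82.8%, and in 38.2% of all genes. It did not part members by their response: Acsl3, Acads and Etfb held it and rose in no fasting comparison, while Acadvl, Acad10 and Etfa lacked it and rose in some. Both strands were read for each, and a match or its lack in these bases says nothing about binding.

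Among the 5 long-chain acyl-CoA synthetases, which join fatty acids to coenzyme A, Acsl1 rose with fasting in every comparison and the other 4 never did. In the p110α line Acsl1 read 254, 274, 286 and 284 CPM in fed controls and 446, 403, 501 and 566 in fasted controls. M-p110αKO read 276, 274, 319.8 and 392 CPM fed and 499.7, 486 and 638 fasted. No fasted mouse of this line overlapped a fed mouse of its genotype. The log2 fold change was 0.80 ± 0.13 (SE, adjusted p = 0.000224), a 1.74-fold rise, in controls and 0.78 ± 0.14 (adjusted p = 0.000852) in M-p110αKO. Acsl1 in the p110β line read 140.2, 181 and 171 CPM in fed controls and 456, 424 and 298 in fasted controls, the lowest being mouse 25. M-p110βKO read 158, 172, 149 and 176 CPM fed and 269, 339, 401 and 251 fasted. The log2 fold change was 1.26 ± 0.17 (adjusted p = 4.22e-05) in controls, 0.86 without mice 23 and 24 (adjusted p = 0.00945), and 0.94 ± 0.15 (adjusted p = 9.63e-05) in M-p110βKO.

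Acsl4, which prefers arachidonic acid, fell in fasted p110β-line controls by 0.47 ± 0.16 on the log2 scale (adjusted p = 0.0352). That call was lost without any one of mice 16, 17, 23, 24 and 25, and without both 23 and 24 the adjusted p was 0.157 at -0.52. Acsl3, Acsl5 and Acsl6, further synthetases with different preferred fatty acids and tissues, did not pass in any fasting comparison, with log2 fold changes between -0.43 and 0.29.

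In the carnitine shuttle, Slc25a20, the carnitine-acylcarnitine translocase of the inner membrane, rose with fasting in all 4 comparisons. Slc25a20 read 85.5, 98.3, 98.1 and 109 CPM in fed and 130.2, 140.2, 131 and 152 in fasted p110α-line controls, and 72.4, 69.0 and 74.4 in fed and 142, 129 and 119 in fasted p110β-line controls. The groups did not overlap in either line. The log2 fold changes were 0.50 ± 0.11 (adjusted p = 0.00224) and 0.85 ± 0.12 (adjusted p = 5.16e-05), and 0.73 without mice 23 and 24 (adjusted p = 0.00632). M-p110βKO gave 0.95 ± 0.11 (adjusted p = 2.15e-06). In M-p110αKO the rise of Slc25a20 was 0.34 ± 0.12 (adjusted p = 0.0458), with fed mouse 8 at 132 CPM inside the fasted range of 128–139.6, and the call was lost without any one of mice 2, 3, 5, 6, 7, 9, 10, 11, 13, 14 and 15.

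Cpt2, the inner-membrane carnitine palmitoyltransferase, rose in M-p110αKO by 0.63 ± 0.17 on the log2 scale (adjusted p = 0.0114), though not without mouse 15. Its change was 0.73 ± 0.14 in p110β-line controls (adjusted p = 0.0008), 0.67 without mice 23 and 24 (adjusted p = 0.0248), and 0.77 ± 0.12 in M-p110βKO (adjusted p = 8e-05), while in p110α-line controls its value of 0.35 did not pass. Cpt1a, the form of carnitine palmitoyltransferase 1 best known from liver, rose in M-p110βKO only by the test, 0.87 ± 0.17 (adjusted p = 0.000521), from 6.63–8.12 CPM fed to 11.2–16.3 CPM fasted. Whether that differed from controls was tested directly, and the difference of 0.54 had an adjusted p of 0.371. Slc22a5, the plasma membrane carnitine transporter, rose in M-p110βKO by 0.48 ± 0.14 (adjusted p = 0.0118). Crat, carnitine acetyltransferase, rose in p110β-line controls by 0.32 ± 0.11 (adjusted p = 0.0376), a call lost without any one of mice 16, 17, 23, 24 and 25, and with an adjusted p of 0.114 at 0.38 without both 23 and 24.

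Of the shuttle genes Cpt1b had the change of greatest size in p110α-line controls, and it did not pass the test. Cpt1b read 4.51, 3.04, 6.74 and 8.71 CPM in fed and 4.28, 3.30, 4.06 and 4.62 in fasted p110α-line controls. The log2 fold change was -0.51 ± 0.27 (adjusted p = 0.159), with fed mice 3 and 4 above every fasted control, mouse 1 among them and mouse 2 below. M-p110αKO gave 0.27 ± 0.29, p110β-line controls 0.51 ± 0.27 (0.06 without mice 23 and 24) and M-p110βKO 0.15 ± 0.24, none of which passed.

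The acyl-CoA dehydrogenases are flavoproteins that take the first electrons from the acyl chain, each for a range of chain lengths. Acadl read 273, 294, 267 and 324 CPM in fed and 472, 397, 463 and 527 in fasted p110α-line controls, a rise of 0.68 ± 0.11 (adjusted p = 0.000212), or 1.61-fold. In M-p110αKO Acadl read 348, 376, 342 and 377 CPM fed and 384, 393 and 513 fasted, and its change of 0.25 ± 0.12 did not pass (adjusted p = 0.141) although the groups did not overlap. Fed M-p110αKO all lay above fed controls for this gene. Acadl in the p110β line read 223, 269 and 261 CPM in fed and 482, 489 and 429.6 in fasted controls, and 203, 199, 209 and 205 in fed and 467, 425, 571 and 459.9 in fasted M-p110βKO. The rises were 0.90 ± 0.12 (adjusted p = 2.73e-05), 0.78 without mice 23 and 24 (adjusted p = 0.00398), and 1.24 ± 0.10 (adjusted p = 9.5e-08), or 2.36-fold.

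Acadm was the member that fell with fasting in 1 comparison and rose in another. Acadm read 466, 559, 556 and 523 CPM in fed and 360.2, 455 and 405 in fasted M-p110αKO, a fall by 0.37 ± 0.12 on the log2 scale (adjusted p = 0.0345), with no overlap. This call was lost without any one of mice 6, 7, 13 and 15 and when only the 2 groups compared were fitted. In M-p110βKO it read 283, 290.3, 302 and 317 CPM fed and 436, 383, 510.1 and 374 fasted, a rise of 0.51 ± 0.10 (adjusted p = 0.000745). In controls the changes were 0.15 ± 0.11 and 0.15 ± 0.12 and did not pass. The difference between M-p110αKO and controls in this response was -0.52 ± 0.16 with an adjusted p of 0.151.

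Acadvl rose in M-p110αKO (0.57 ± 0.13, adjusted p = 0.00521), in p110β-line controls (0.75 ± 0.13, adjusted p = 0.000264, and 0.89 without mice 23 and 24) and in M-p110βKO (0.83 ± 0.11, adjusted p = 1.39e-05), with a value of 0.31 in p110α-line controls that did not pass. Acad11, a family member of less settled substrate, rose in the same 3 comparisons. Acad11 read 68.8, 66.6, 64.5 and 68.4 CPM in fed and 78.7, 70.7, 81.8 and 90.8 in fasted p110α-line controls, and 46.6, 48.9 and 48.1 in fed and 96.8, 92.0 and 81.4 in fasted p110β-line controls. The changes were 0.26 ± 0.12 (adjusted p = 0.11) and 0.91 ± 0.11 (adjusted p = 6.24e-06), the second being 0.77 without mice 23 and 24 (adjusted p = 0.00179). In knockouts it read 53.7, 47.0, 75.8 and 60.2 CPM fed and 83.9, 79.6 and 81.7 fasted in the p110α line, and 52.2, 49.3, 44.4 and 54.4 fed and 77.9, 86.0, 77.8 and 80.8 fasted in the p110β line. These gave 0.47 ± 0.13 (adjusted p = 0.0165), lost without mouse 6 or 13, and 0.69 ± 0.09 (adjusted p = 1.71e-05). Acad10 rose in the p110β line, by 1.09 ± 0.19 in controls (adjusted p = 0.000314) from 8.40–11.2 to 18.9–22.5 CPM (1.24 without mice 23 and 24) and by 1.02 ± 0.17 in M-p110βKO (adjusted p = 0.000133). Acads, the short-chain dehydrogenase, and Acad9, also an assembly factor of respiratory complex I, did not pass in any fasting comparison, with values between -0.23 and 0.19.

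The next 9 genes serve hydration, hydroxyacyl oxidation and thiolysis. Hadha and Hadhb encode the alpha and beta subunits of the mitochondrial trifunctional protein, which hydrates, oxidizes and cleaves long chains. They lie head to head on chromosome 5 with 273 bases between their RefSeq starts. The 228 bases that lie in both start-site windows are shown because they precede both genes by these starts, with the GC box in capitals. In GENCODE, Hadha extends to base 30155162, inside this stretch.
Hadha and Hadhb (chr5:30155003-30155230, plus strand): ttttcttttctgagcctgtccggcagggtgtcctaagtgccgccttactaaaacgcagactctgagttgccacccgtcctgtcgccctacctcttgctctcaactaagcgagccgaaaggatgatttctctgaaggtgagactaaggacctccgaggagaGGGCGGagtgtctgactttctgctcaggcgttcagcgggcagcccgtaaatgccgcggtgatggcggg
Hadha read 389, 407, 420.1 and 472 CPM in fed and 521, 464, 454 and 572 in fasted p110α-line controls, and 370.1, 352, 483 and 451 in fed and 576, 533 and 581 in fasted M-p110αKO. Its changes were 0.25 ± 0.11 (adjusted p = 0.0976) and 0.44 ± 0.12 (adjusted p = 0.0144), the second lost without mouse 13 or 15. Hadhb read 159, 162, 218 and 229 CPM in fed and 242, 232, 276 and 315 in fasted controls, and 227, 243, 183 and 198 in fed and 226, 190.5 and 294 in fasted M-p110αKO. Its changes were 0.47 ± 0.15 (adjusted p = 0.0266), lost without any one of mice 1, 2, 11 and 12, and 0.15 ± 0.16 (adjusted p = 0.54). Each subunit thus passed in 1 genotype of this line, and neither response differed between genotypes by the direct test (0.19 for Hadha, adjusted p = 0.618, and -0.32 for Hadhb, which did not pass either). In the p110β line both passed in both genotypes: Hadha by 0.74 ± 0.13 and 0.69 ± 0.12, and Hadhb by 0.58 ± 0.18 and 1.19 ± 0.16. Without mice 23 and 24 the control value of Hadha was 0.61 (adjusted p = 0.033). The control call of Hadhb was lost without any one of mice 16, 18, 23 and 24, and without both 23 and 24 its value was 0.23 (adjusted p = 0.556).

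Acaa2 read 204, 228, 259 and 211 CPM in fed and 243, 212, 250.1 and 284 in fasted p110α-line controls, and its change of 0.13 ± 0.11 did not pass. In M-p110αKO it read 250.4, 268, 250.4 and 293 CPM fed and 318, 322 and 374 fasted, a rise of 0.35 ± 0.11 (adjusted p = 0.0388) lost without any one of mice 2, 5, 6, 7, 9, 13, 14 and 15. In the p110β line it read 224, 283 and 218 CPM in fed and 341, 320.3 and 349 in fasted controls, and 206, 180.3, 209 and 167 in fed and 365, 306, 457 and 374 in fasted M-p110βKO. The rises were 0.48 ± 0.14 (adjusted p = 0.0175), lost without mouse 16 or 18 and with an adjusted p of 0.0855 without mice 23 and 24, and 0.98 ± 0.12 (adjusted p = 9.15e-06). Fed and fasted mice overlapped in p110α-line controls and in no other group.

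Ehhadh, which passed in both genotypes of the p110α line, passed in neither of the p110β line. Ehhadh read 6.45, 5.94, 5.01 and 4.97 CPM in fed and 8.04, 7.82, 8.39 and 10.7 in fasted p110α-line controls, a rise of 0.64 ± 0.20 (adjusted p = 0.0252) that was lost without mouse 4 or 12. M-p110αKO read 5.10, 5.56, 5.27 and 4.23 CPM fed and 5.04, 7.55 and 11.2 fasted, at 0.64 ± 0.22 (adjusted p = 0.049), lost without any one of mice 1, 2, 3, 5, 6, 7, 8, 9, 10, 11, 14 and 15. In the p110β line it read 5.96, 4.40 and 6.49 CPM in fed and 4.05, 2.43 and 7.56 in fasted controls, with overlap and a change of -0.30 ± 0.32, which was 0.41 without mice 23 and 24. The difference between the lines' controls was -0.95 (adjusted p = 0.188), and it passed only without mouse 25, at -1.44.

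Echs1, the short-chain enoyl-CoA hydratase, rose in the p110β line by 0.69 ± 0.11 in controls (adjusted p = 0.00018), 0.75 without mice 23 and 24, and 0.58 ± 0.10 in M-p110βKO (adjusted p = 0.000132). Hadh, the hydroxyacyl-CoA dehydrogenase of medium and short chains, and Acat1, the acetoacetyl-CoA thiolase, rose in M-p110βKO, by 0.47 ± 0.10 (adjusted p = 0.000774) and 0.29 ± 0.11 (adjusted p = 0.0414). The call of Acat1 was lost without any one of mice 19, 20, 21, 24, 26 and 28. Hsd17b10, a further hydroxyacyl-CoA dehydrogenase, and Acaa1a, a peroxisomal thiolase whose paralog Acaa1b may share reads with it, did not pass in any fasting comparison, with values between -0.34 and 0.24.

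Double bonds in natural fatty acids must be moved or reduced before oxidation can go on, which is the work of the isomerases Eci1, Eci2 and Ech1 and the reductases Decr1 and Decr2. Eci2 read 40.7, 44.9, 50.3 and 69.5 CPM in fed and 80.1, 78.2, 70.8 and 84.1 in fasted p110α-line controls, a rise of 0.61 ± 0.15 (adjusted p = 0.00613). M-p110αKO read 45.9, 53.6, 58.7 and 73.5 CPM fed and 85.3, 79.3 and 83.7 fasted, a rise of 0.51 ± 0.16 (adjusted p = 0.0326) lost without any one of mice 5, 6, 7, 13, 14 and 15. Groups did not overlap in either genotype. Eci2 in the p110β line read 37.0, 43.3 and 40.1 CPM in fed and 78.8, 74.1 and 95.8 in fasted controls, and 38.4, 35.2, 37.1 and 46.0 in fed and 109, 65.2, 117 and 97.3 in fasted M-p110βKO. The rises were 1.05 ± 0.17 (adjusted p = 0.000237), 1.26 without mice 23 and 24, and 1.31 ± 0.15 (adjusted p = 3.47e-06), or 2.48-fold.

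Eci1 read 72.0, 78.8 and 85.0 CPM in fed p110β-line controls and 146, 147 and 88.4 in fasted ones, so the 2 high values were those of mice 23 and 24. Its rise was 0.69 ± 0.16 (adjusted p = 0.00421) with them and 0.17 (adjusted p = 0.563) without. The part of the adipocyte genes in this value was not tested. In M-p110βKO, where these genes summed to at most 4.65 CPM after fasting, Eci1 rose by 0.51 ± 0.14 (adjusted p = 0.00854). Ech1 rose in p110β-line controls by 0.55 ± 0.13 (adjusted p = 0.00511), 0.61 without mice 23 and 24 (adjusted p = 0.0377), and in M-p110βKO by 0.71 ± 0.12 (adjusted p = 0.000113). Decr1, the mitochondrial reductase, rose in p110α-line controls by 0.32 ± 0.10 (adjusted p = 0.0268), lost without any one of mice 1, 4, 11 and 12, and in M-p110βKO by 0.39 ± 0.10 (adjusted p = 0.0058). Decr2 read between 1.02 and 4.26 CPM throughout and did not pass in any fasting comparison.

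At the electron transfer step Etfdh, the dehydrogenase that hands electrons from the flavoprotein to ubiquinone, had the lowest adjusted p of the 35 genes in p110α-line controls. Etfdh read 166, 167, 184 and 169 CPM in fed and 267, 245, 254 and 313 in fasted controls, a rise of 0.65 ± 0.10 (adjusted p = 0.000144), or 1.57-fold. M-p110αKO read 172, 168, 179 and 211 CPM fed and 264, 224 and 254 fasted, a rise of 0.44 ± 0.11 (adjusted p = 0.00822) lost without mouse 13. Etfdh in the p110β line read 109, 121 and 119 CPM in fed and 192, 195 and 195 in fasted controls, and 104, 111, 101 and 126 in fed and 211, 194, 252 and 176 in fasted M-p110βKO. The rises were 0.73 ± 0.13 (adjusted p = 0.00031), 0.74 without mice 23 and 24 (adjusted p = 0.00864), and 0.91 ± 0.11 (adjusted p = 5.21e-06). No fed mouse overlapped a fasted mouse of its line and genotype. Etfa rose in p110α-line controls by 0.47 ± 0.12 (adjusted p = 0.00514) and in M-p110βKO by 0.85 ± 0.12 (adjusted p = 4.1e-05), while Etfb did not pass in any fasting comparison, with values between -0.42 and 0.09.

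**Figure D4:**
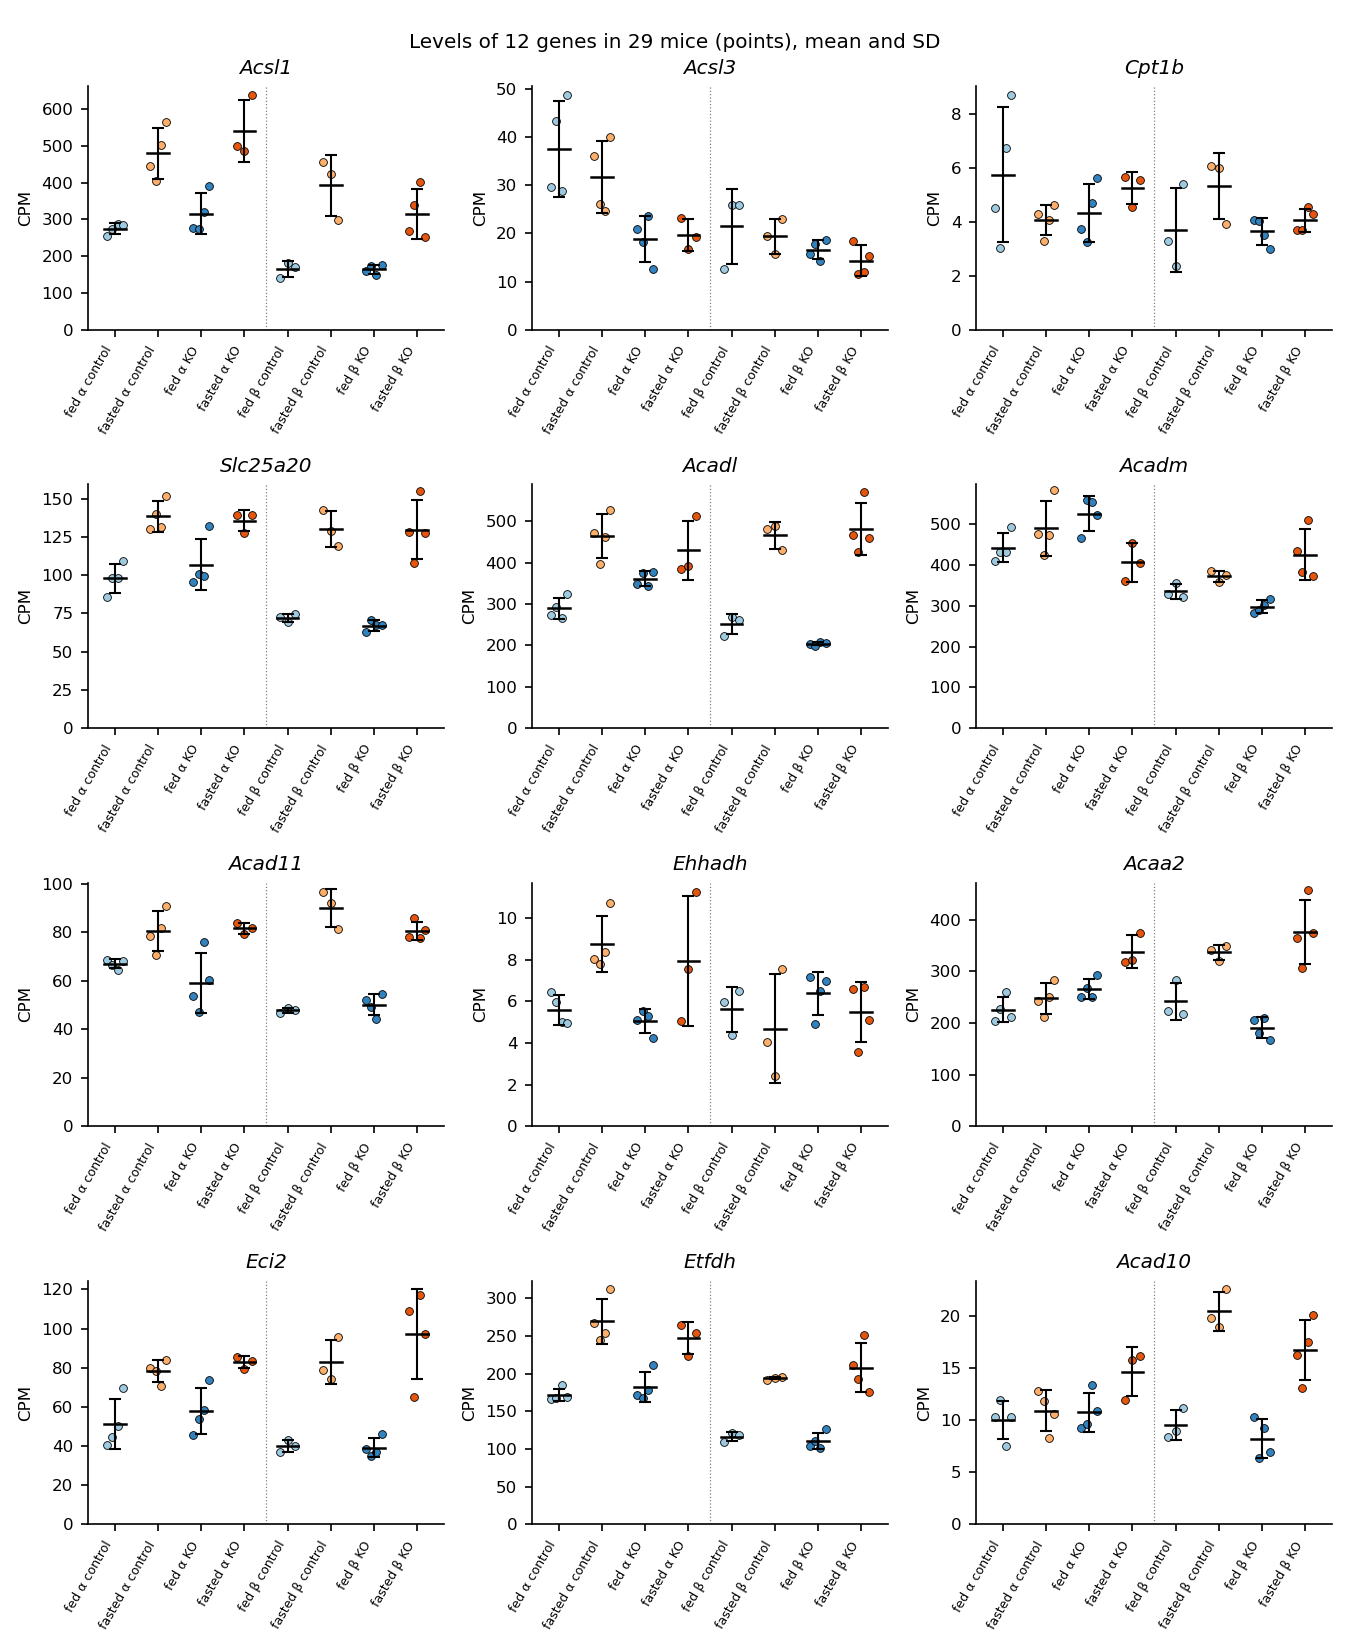
CPM of 12 genes in every mouse (points), and group means with SD (bars); each panel starts at 0, blue marks fed and orange fasted mice, and the dotted line parts the lines. Acsl1, Slc25a20, Eci2 and Etfdh were higher in the fasted groups of both lines, Acsl3 was lower in knockouts than in controls of the p110α line, and Cpt1b stayed under 9 CPM.

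Loss of p110α changed few of these genes. These comparisons share their groups with the fasting comparisons. In fed mice 1 of 35 fell and 0 rose, against 0.418% and 0.193% of tested genes, in fasted mice 1 rose and 0 fell, against 3.02% and 3.51%, and over both states 1 rose and 1 fell, against 2.26% and 3.23%. Acsl3, a synthetase known from lipid droplets and the endoplasmic reticulum, was the one that fell. Acsl3 read 29.5, 43.2, 28.7 and 48.7 CPM in fed controls and 20.9, 18.2, 23.6 and 12.5 in fed M-p110αKO, with no overlap, and the difference was -1.01 ± 0.21 (adjusted p = 0.0341), or 0.496-fold. Fasted controls read 36.0, 26.1, 24.6 and 40.0 CPM and fasted M-p110αKO 23.2, 16.7 and 19.3, again with no overlap, at -0.69 ± 0.23 (adjusted p = 0.0861; DESeq2 passed it). Over both states the difference was -0.85 ± 0.16 (adjusted p = 0.00507). The call in fed mice was lost without any one of mice 2, 4, 5, 6 and 8 and when only the 2 groups were fitted, while the call over both states held without each of the 15 mice in turn.

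Acaa2 was the member that rose in M-p110αKO, by 0.45 ± 0.11 in fasted mice (adjusted p = 0.0268) with no overlap, and by 0.34 ± 0.08 over both states (adjusted p = 0.0164). The fasted call was lost without any one of mice 9, 10, 11, 14 and 15. Both calls were lost after a correction for GC content and length, which gave 0.32 and 0.23. In fed mice the Acaa2 difference was 0.24 ± 0.11 (adjusted p = 0.396). All other members had log2 differences in fed mice between -0.44 and 0.47 that did not pass, the highest being Etfb.

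The direct test of whether loss of p110α altered the fasting response gave 0 members by edgeR, against 0.209% of tested genes with a higher and 0.273% with a lower response, and 0 by DESeq2 and by limma-voom. At an unadjusted p under 0.05 there were 2 higher (Crat 0.42 and Acads 0.38) and 4 lower (Acadm -0.52, Acadl -0.43, Etfa -0.43 and Decr1 -0.33). Of all tested genes 7.44% were higher and 7.51% lower at that threshold. No member had an adjusted p under 0.151.

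**Figure D5:**
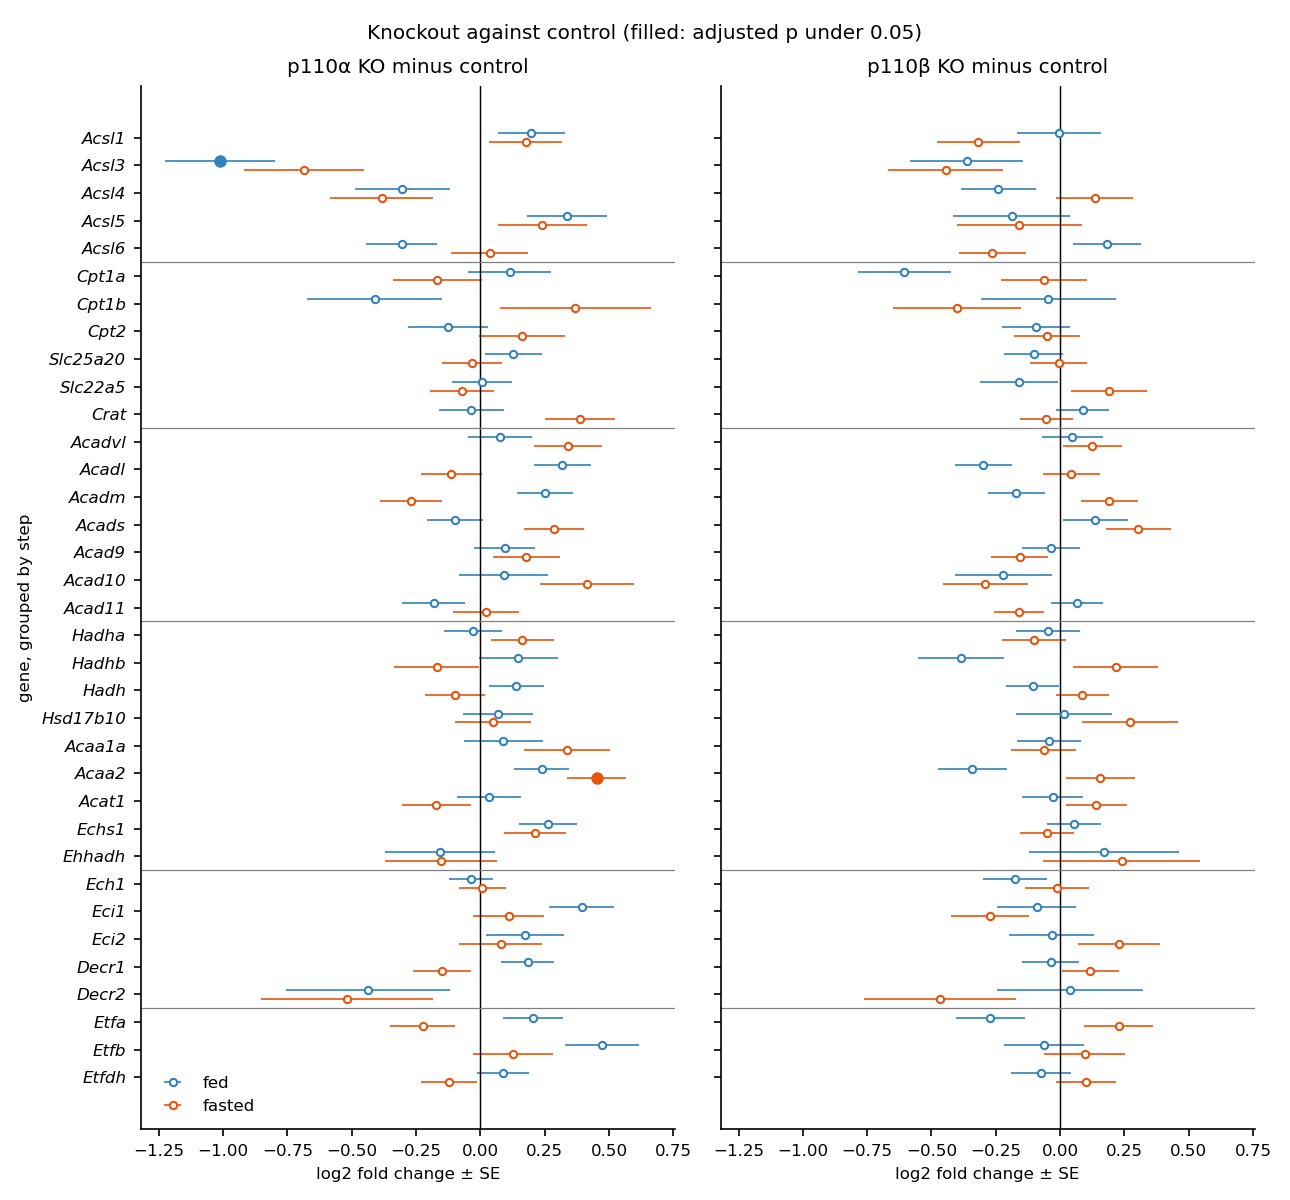
Log2 difference between knockout and control (points, ± SE) of the 35 genes, by step, in fed (blue) and fasted (orange) mice of each line; filled points have an adjusted p under 0.05. The filled points are Acsl3 in fed (-1.01) and Acaa2 in fasted M-p110αKO (0.45), and there is none in M-p110βKO.

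Loss of p110β gave no call among the 35 genes by edgeR, DESeq2 or limma-voom, in fed mice, fasted mice or over both. In fed mice 0% of the 12249 tested genes rose and 0% fell, in fasted mice 0.294% and 0.596%, and over both states 0.171% and 0.163%. At an unadjusted p under 0.05, 0 members were higher and 4 lower in fed mice (Cpt1a -0.60, Acaa2 -0.34, Hadhb -0.39 and Acadl -0.30), 1 higher in fasted mice (Acads 0.30), and 3 over both states, of which 1 was higher (Acads 0.22) and 2 were lower (Acsl3 -0.40 and Cpt1a -0.33). Of all tested genes, 4.22% were higher and 4.43% lower at that threshold in fed mice, 6.16% and 7.06% in fasted mice, and 5.03% and 5.6% over both states. For Cpt1a, Acadl, Acadm and Acaa2 every fed M-p110βKO mouse lay below every fed control, and for 0 members above, where 4.48% of all tested genes lay wholly below and 5.34% wholly above. The test of the fasting response gave 0 members by all 3 tools, against 0.0408% and 0.0653% of tested genes, with 6 higher responses and 1 lower one, Acsl6 (-0.45), where p was not adjusted and under 0.05. The 6 were Hadhb (0.60), Cpt1a (0.54), Acaa2 (0.50), Etfa (0.50), Acadm (0.36) and Acadl (0.34), where 6.15% of all tested genes had a higher and 6.61% a lower response at that threshold. This contrast contains the fed difference, in which Hadhb, Cpt1a, Acaa2 and Acadl were already listed as lower. The 2 lists are therefore not separate observations. Marker sums also parted these genotypes. Muscle genes were higher in all fed M-p110βKO (83200–84040 against 74190–81560 CPM), while the fasted sums overlapped. Fibroblast genes were lower in all fasted M-p110βKO (153–225 against 306–314). So were macrophage genes (17.8–20.3 against 25.0–26.3) and adipocyte genes (1.36–4.65 against 4.80–158). The part of these cells in the values above was not tested.

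Between the controls of the lines, Acad11 was the only member by edgeR whose fasting response differed, higher in the p110β line by 0.64 ± 0.16 (adjusted p = 0.0376), where 0.933% of 12760 tested genes had a higher and 0.627% a lower response. That call was lost without any one of mice 1, 2, 4, 9, 10, 11, 16, 17, 23 and 24, and without both 23 and 24 the value was 0.51 (adjusted p = 0.343). DESeq2 called 4 members. At an unadjusted p under 0.05, 11 members had a higher response in the p110β line, among them Acad10 (0.96, adjusted p = 0.0536) and Ech1 (0.52, adjusted p = 0.0717), and 2 a lower one, Ehhadh and Acsl4, against 8.71% and 8.62% of all tested genes.

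Other genes of the pathway were read from lists, by counts and by up to 3 genes of each, from those with the lowest adjusted p in fasted p110α-line controls. Of 3 genes that set malonyl-CoA, the inhibitor of carnitine palmitoyltransferase 1, 2 rose in p110α-line controls, 2 in M-p110αKO, 3 in p110β-line controls and 2 in M-p110βKO, and none fell. Acacb, the mitochondrial acetyl-CoA carboxylase that makes malonyl-CoA, rose by 0.68 ± 0.15, 0.89 ± 0.16, 1.53 ± 0.13 (1.43 without mice 23 and 24) and 0.99 ± 0.11 in this order. Mlycd, which degrades malonyl-CoA, rose by 0.54 ± 0.19, 0.96 ± 0.21, 1.28 ± 0.14 (1.10 without) and 1.19 ± 0.12. The enzymes that make and remove the inhibitor thus both rose in every comparison. Acaca, the cytosolic carboxylase, passed in p110β-line controls alone (0.51 ± 0.18), and there not without mice 23 and 24 (0.62, adjusted p = 0.108).

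Of 11 genes of peroxisomal oxidation 10 were tested, and 2, 3, 3 and 3 rose and 1, 2, 1 and 0 fell in the same order. Hsd17b4, the peroxisomal bifunctional enzyme for branched and very long chains, rose by 0.77 ± 0.11, 0.68 ± 0.12, 0.83 ± 0.13 (0.93 without mice 23 and 24) and 0.99 ± 0.11. Abcd2, a peroxisomal importer, fell by 0.59 ± 0.13, by 0.41 ± 0.14 and by 0.40 ± 0.13 on the log2 scale in the first 3, and its value in M-p110βKO, -0.24, did not pass. Without mice 23 and 24 the third was -0.38 (adjusted p = 0.2).

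Of 6 genes of FAD supply and electron transfer assembly 5 were tested, and 1, 1, 1 and 0 rose and 1, 0, 0 and 1 fell. Etfbkmt, the methyltransferase that acts on the flavoprotein beta subunit, rose by 1.02 ± 0.11, 0.70 ± 0.11 and 0.68 ± 0.20 in the first 3 comparisons, the third being 0.67 without mice 23 and 24 (adjusted p = 0.116). Flad1, FAD synthase, which shares 43.8% of its exon bases with Lenep on the same strand, fell by 0.53 ± 0.11 in p110α-line controls and by 0.51 ± 0.11 in M-p110βKO, and Etfrf1 passed in none. Of 12 further dehydrogenases and synthetases 11 were tested, and 1, 1, 4 and 4 rose and 2, 1, 1 and 1 fell. Acss1, the mitochondrial acetyl-CoA synthetase, rose by 1.97 ± 0.15, 1.44 ± 0.15, 3.31 ± 0.30 and 2.63 ± 0.26, above every one of the 35 members. In p110β-line controls it read 16.4–22.6 CPM fed and 223, 254 and 108 fasted, the lowest being mouse 25, and without mice 23 and 24 the change was 2.46 (adjusted p = 2.18e-05), a 5.49-fold rise. Acad8, of valine breakdown, and Slc25a29, a mitochondrial carrier, fell in p110α-line controls by 0.45 ± 0.09 and by 0.77 ± 0.27.

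Of 9 regulators and their muscle target genes 2, 2, 7 and 7 rose and 2, 1, 2 and 2 fell. Pdk4, the kinase that shuts pyruvate dehydrogenase, rose by 1.78 ± 0.26, 1.14 ± 0.27, 2.94 ± 0.25 (3.06 without mice 23 and 24) and 3.61 ± 0.22, and Angptl4, an inhibitor of lipoprotein lipase, by 1.53 ± 0.34, 1.44 ± 0.33, 2.74 ± 0.40 and 2.77 ± 0.39. Angptl4 read 1.58–3.04 CPM in fed p110β-line controls and 19.0, 17.3 and 8.00 in fasted ones, the lowest being mouse 25, and its change without mice 23 and 24 was 1.85 (adjusted p = 0.0165). Esrra, the nuclear receptor ERRα, fell by 0.96 ± 0.11, by 0.35 ± 0.12, by 0.48 ± 0.17 and by 0.65 ± 0.15 on the log2 scale, the p110β-line control value being -0.74 without mice 23 and 24 (adjusted p = 0.0382).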

How the data were processed

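RNA of TA muscle was extracted with Trizol and made into libraries with a NEBNext mRNA kit. The authors deposited a table of raw counts for 48023 genes and per the submitters' processing notes aligned reads with STAR to GRCm38 and counted them with featureCounts of Subread. Not given in the sources used here are tool versions, the strand setting and the treatment of reads in several genes. Each of the 29 columns was matched to its mouse by the labels, and no column was left unused. The labels give no batch or date. That each library is a separate mouse comes from the labels, and 39 within-group pairs of libraries differed beyond sampling noise (chi-square per degree of freedom 3.64–28.05).

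A separate edgeR fit was made for each line with all of its groups, in edgeR 4.0.16 under R 4.3.3 after filterByExpr (min.count 10, min.total.count 15) and TMM scaling, and the quasi-likelihood F test was used for 13 contrasts. The contrast between lines came from a fit of all mice. P values were adjusted by the method of Benjamini and Hochberg across every gene in the fit, and 0.05 was the threshold. Symbols, exon lengths and exon overlaps came from GENCODE M21. The alternatives comprised scaling by upper-quartile factors or DESeq2 size factors, keeping every gene with at least 1 read, requiring 1 CPM in 3 samples, dropping the 20 most abundant and the mitochondrially encoded genes, testing with limma-voom (limma 3.58.1) or DESeq2 1.42.0, fitting the compared groups alone, correcting counts by GC content and length (spline, 5 degrees of freedom) and the omission of each mouse in turn. Fits without mice 23 and 24 were chosen after seeing the data. The scripts were tested on simulated data. Members with a call in a genotype, interaction or line contrast, or with the change of greatest size of their step in fasted p110α-line controls, were to be given in every mouse, and others were added where they showed a pattern. The members and lists were chosen with earlier results of these data known. Some genes of the further lists are not reported here.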

Additional observations from a re-analysis of the deposited data

Results flagged for a closer look

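In 175 combinations of a gene and a group of 4 mice, 12 had 1 mouse far from the other 3 by Dixon's criterion, where chance alone gives about 1 in 20. In fed M-p110αKO, mouse 8 was high in Cpt2 (65.7 CPM, others 48.9–50.7) and in Slc25a20 (132, others 95.4–101). Mouse 8 also differed in marker sums: fast IIa and IIx fiber genes 15310 CPM (others 4390–6181), fast IIb genes 49710 (others 61410–66910) and fibroblast genes 631 (others 258–348). The part of these cells and fibers in its values was not tested. Among fed p110α-line controls, mouse 4 was high in Crat (324, others 216–232) and mouse 3 in Etfdh (184, others 166–169). Among fasted p110α-line controls, mouse 10 was high in Crat (219, others 204–205), mouse 11 in Acads (67.4, others 54.2–55.6) and in Acad9 (36.8, others 31.1–31.6), and mouse 12 in Etfa (327, others 221–239). In fed M-p110βKO, mouse 21 was low in Acads (62.5, others 77.6–78.2) and in Decr2 (2.30, others 3.42–3.60), and mouse 22 was high in Acat1 (208, others 158–166). In fasted M-p110βKO, mouse 28, which also stood apart in liver genes, was high in Hadha (543, others 399.6–423).

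The fasting response of Acad11 differed between the controls of the lines by 0.64 on the log2 scale, in the test of the difference itself (edgeR, adjusted p = 0.0376). Without mice 23 and 24 it was 0.51 (adjusted p = 0.343).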

How the results depend on the processing

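No paired analysis was possible because every mouse has its own number in the labels. No called result reversed its direction. With only the compared groups fitted, the members called were 6 for fasting in M-p110αKO, 0 for loss of p110α in fed mice and 2 in fasted mice. With no filter beyond 1 read they were 2 for loss of p110α in fed and 3 in fasted mice, 1 for loss of p110β over both states and 2 for the lines. The GC and length correction gave 0 for loss of p110α in fasted mice and 1 over both states. DESeq2 gave 2 for loss of p110α in fasted mice and 4 for the lines, for which DESeq2 size factors gave 2 and leaving out mitochondrially encoded and abundant genes gave 2. Without mice 23 and 24 the lines gave 0. The cause of these shifts was not tested, and the share of all tested genes called under each setting is not given here.

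Leaving out 1 mouse at a time gave 7–10 members called for fasting in p110α-line controls and 4–11 in M-p110αKO (4 without mouse 13 or 15), 13–17 in p110β-line controls and 21–22 in M-p110βKO. It gave 0–1 for loss of p110α in fed mice, 0–2 in fasted mice, 2–2 over both states, 0–1 for loss of p110β in fasted mice (1 without mouse 25) and 0–3 for the lines. The shares of all tested genes called without each mouse are not given here. With 3 or 4 mice a group and 14–100 reads for Cpt1b, small changes of the least abundant members may go undetected.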
